A study of Homo sapiens with 18 samples.

Results

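The response to an siRNA against PARP1 was compared between TRIM27-knockout (KO) and wild-type (WT) MDA-MB-231 cells. This is an established line from a human triple-negative breast cancer. For each gene the siPARP1 response of WT cells was subtracted from that of KO cells, as (KO siPARP1 minus KO untreated) minus (WT siPARP1 minus WT untreated), on the log2(FPKM + 1) scale. FPKM is a fragment count divided by transcript length and library size. A gene was a member when 3 or more of these groups' 12 libraries reached 1 FPKM for it, which left 15251 of the 62830 genes in the table. The rule reads the level of a gene, and a gene raised in 1 group alone can meet it through that group. This was so for 107 genes, which reached 1 FPKM in the 3 libraries of 1 group and in no other library, 36 of them in WT siPARP1 cells. Of these 107 genes, 26 (24.3%) passed the test of the interaction at an adjusted p under 0.05, 2 higher and 24 lower in KO cells, and since such a gene had to differ between groups, its fitted value is a description.

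There were 4 groups of 3 libraries each. They were TRIM27-KO cells with siPARP1, TRIM27-KO cells without treatment, TRIM27-WT cells with siPARP1 and TRIM27-WT cells without treatment, and all carried the same batch label. The siRNA was labelled 100 pM for 48 h and was delivered by lipid transfection. The 6 remaining libraries of the series, KO and WT cells given 2 µM olaparib for 24 h, served for a side-by-side comparison. A non-targeting siRNA is mentioned in the protocols, but none of the libraries used here carries that label, so transfection and loss of PARP1 cannot be told apart in either genotype. The labels do not say whether the KO cells are 1 clone or a pool, nor whether its libraries, or those of any other group, are separate cultures. The p-values therefore measure only the spread between these libraries, which may be technical.

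PARP1 is a nuclear enzyme that senses DNA breaks and attaches poly(ADP-ribose) chains to proteins, and it also acts at promoters. TRIM27 is a RING-type ubiquitin ligase of the tripartite motif family, with known roles in innate immune signalling and in endosomal sorting through the WASH complex. An interaction asks whether the same siRNA moved a gene by different amounts, or in different directions, in cells with and without TRIM27. A positive value means a higher (or less negative) siPARP1 response in KO cells, and it can arise from either genotype.

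PARP1 (ENSG00000143799, chr1:226360691-226408079, GRCh38) was depleted in both genotypes. It measured 8.71, 9.58 and 9.46 FPKM in KO siPARP1 cells, against 58.9, 51.5 and 55.2 FPKM in untreated KO cells, and 9.94, 10.6 and 11.7 FPKM in WT siPARP1 cells, against 59.1, 54.5 and 54.9 FPKM in untreated WT cells. Every siPARP1 library lay far below every untreated library of its genotype. The remaining level was 16.8% of the untreated mean in KO cells and 19.1% in WT cells, and the interaction of -0.17 ± 0.10 (SE; adjusted p = 0.433) was not called. With sums of the deposited transcript values it was 0.66 (adjusted p = 0.544), of opposite sign and likewise not called. TRIM27 (ENSG00000204713, chr6:28903002-28923989) measured 0.946, 0.982 and 1.04 FPKM in KO siPARP1 cells, against 0.665, 0.547 and 0.658 FPKM in untreated KO cells, and 1.78, 1.62 and 2.44 FPKM in WT siPARP1 cells, against 1.18, 1.51 and 1.65 FPKM in untreated WT cells. It was lower in KO than in WT cells under both conditions, by a log2 difference of -0.56 (adjusted p = 0.00551) with siPARP1 and of -0.59 (adjusted p = 0.00456) without. Its transcript was thus reduced and not absent in the libraries labelled KO, and since the edited part of the gene is not given, its level does not test the loss of the protein. PAX6, a transcription factor named in the study's design, stayed below the level filter at 0.385 to 0.698 FPKM in KO siPARP1 cells, against 0.934 to 1.18 FPKM in untreated KO cells, and 0.296 to 0.609 FPKM in WT siPARP1 cells, against 0.331 to 0.501 FPKM in untreated WT cells. Its interaction was -0.45 ± 0.15 (SE; adjusted p = 0.223) in the fit of all 31648 genes with a value above 0 in 3 or more of the 12 libraries.

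Relative depth of the 12 libraries, read from the steps of low values, ran from 0.749 to 1.04 times that of WT library 1, and the absolute depth is unknown. Library profiles correlated at 0.982 to 0.986 within groups and 0.936 to 0.976 between groups. Transcripts encoded in mitochondria took a mean 27.6% of the FPKM of named genes in KO siPARP1 cells, 19.7% in untreated KO cells, 25.8% in WT siPARP1 cells and 21.2% in untreated WT cells. Of 10 markers listed for this line, 9 or 10 were at 1 FPKM or more in every group. Endothelial markers summed to 0.0714 FPKM at most, and of the 8 leukocyte markers only CD68 reached 1 FPKM. The 8 luminal breast markers, mostly KRT18, summed to 556 to 571 FPKM in KO siPARP1 cells, 1301 to 1349.7 FPKM in untreated KO cells, 577 to 599 FPKM in WT siPARP1 cells and 1083 to 1172 FPKM in untreated WT cells, with TFF1 at 0 throughout. Fibroblast markers, mostly THY1, summed to 13.3 to 15.2 FPKM in KO siPARP1 cells, 21.6 to 26.9 FPKM in untreated KO cells, 16.4 to 17.3 FPKM in WT siPARP1 cells and 23.7 to 24.9 FPKM in untreated WT cells. Neural markers, mostly TUBB3, summed to 15.3 to 39.6 FPKM in KO siPARP1 cells, 48.9 to 52.5 FPKM in untreated KO cells, 32 to 52.3 FPKM in WT siPARP1 cells and 55.6 to 58.5 FPKM in untreated WT cells. These sums were lower with siPARP1 in both genotypes, KRT18 had an interaction of -0.34 (adjusted p = 0.0148), and the part of such markers in the results was not tested.

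The siRNA moved a large part of the transcriptome, mostly in parallel in both genotypes. It changed 8199 genes (53.8%) in KO cells, 4780 higher and 3419 lower, and 7797 genes (51.1%) in WT cells, 4460 higher and 3337 lower. Of 6250 genes that passed in both genotypes, 6200 moved in the same direction. Across genes the KO response followed the WT response with a slope of 0.887 and a Pearson r of 0.814, a description over genes of the same 12 libraries. Against this shared response, 507 genes (3.32%) differed between genotypes at an adjusted p under 0.05, 249 (1.63%) with a higher and 258 (1.69%) with a lower response in KO cells. Leaving out 1 library gave between 298 and 374, with 298 without WT library 1, 308 without WT library 3, 329 without KO library 1 and 327 without KO siPARP1 library 3. Leaving out the 107 genes that met the level filter through 1 group, an alternative chosen after seeing the data, gave 461. Rescaling to the named genes other than mitochondrial ones gave 530 calls, 335 higher and 195 lower (63.21% higher, against 49.11%), so the balance of directions depends on the scaling. In all 507 genes the 9 library differences of KO cells did not overlap the 9 of WT cells, as was true, over all tested genes, of 6.05% with KO above and 5.54% with KO below.

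**Figure D1:**
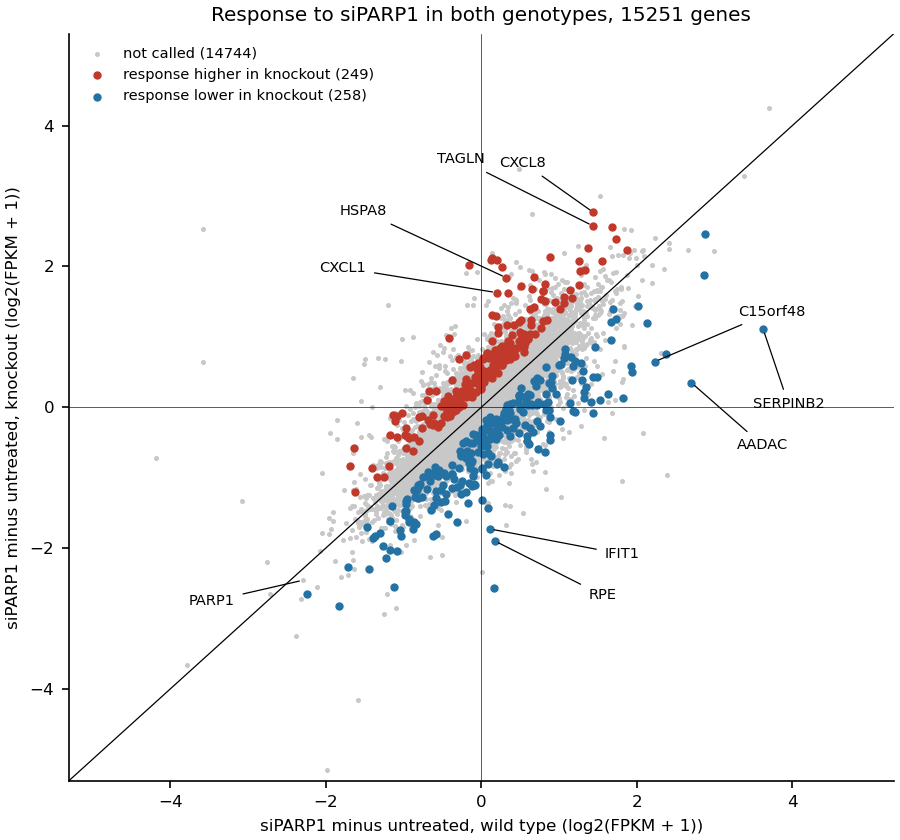
Log2 change of each gene with siPARP1 in WT cells (horizontal) and in KO cells (vertical), on the log2(FPKM + 1) scale. The 249 genes with a higher and the 258 with a lower response in KO cells lie above and below the diagonal, and the other 14744 tested genes lie mostly along it.

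The interactions took several forms. In 185 of the 507 genes (36.5%) both genotypes moved the same way and KO cells moved further, and in 71 (14%) they moved less far. In 119 genes (23.5%) the change passed the test in KO cells alone and in 87 (17.2%) in WT cells alone, which by itself does not show that the other genotype did not respond. In 45 genes (8.88%) the changes passed in both genotypes with opposite signs. Without WT library 3 this count was 26. The median size of a called interaction was 0.51 log2, 63 genes reached a size of 1, and 44 of these 63 were lower in KO cells. Of all 507, 26 genes lay below 1 FPKM in both KO groups and 14 in both WT groups, where the log2(FPKM + 1) scale compresses differences. By mean level, calls made up 2.49% of genes under 1 FPKM and 4.67% of those over 100 FPKM. The 323 genes that met the level filter in exactly 3 libraries had a median level of 0.756 FPKM and held 26 calls, all of them among the 107 genes above, and the 427 genes just outside it had a median level of 0.635 FPKM.

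Interferon-stimulated genes encode antiviral proteins that are switched on by type I interferon through STAT and IRF factors. SiPARP1 lowered 14 of the 33 tested genes of this list in KO cells and raised 12 of them in WT cells. Of the 33, 9 had a lower and 0 a higher response in KO than in WT cells, 29 estimates were negative, and the median interaction was -0.39, against 0.0069 over all genes tested. At an unadjusted p under 0.05 the counts were 18 lower and 0 higher, against 8.30% lower and 9.66% higher of all genes tested. OAS2 and OASL, 2 of the 9, met the level filter through the WT siPARP1 libraries alone, and a fit without such genes called 6 of the other 31. It raised 3 in KO cells and lowered 8 in WT cells. KO minus WT was lower for 20 and higher for 0 of the 33 under siPARP1, against 6 lower and 1 higher without treatment. Over all genes tested, KO was lower for 10.2% and higher for 10.6% under siPARP1, and lower for 9.53% and higher for 8.43% without treatment. SiPARP1 raised 31.3% and lowered 22.4% of all genes in KO cells, and raised 29.2% and lowered 21.9% in WT cells.

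The promoters of IFIT1, IFIT3 and IFI6, picked from the called genes of this list, are shown because they carry a known interferon response sequence. Other called members with a match, such as IFI44, are not shown. The sequences are the 250 bases before the start of the gene in RefSeq (GRCh38.p14), at chr10:89392373-89392622 (plus strand) for IFIT1, at chr10:89327747-89327996 (plus strand) for IFIT3 and at chr1:27672193-27672442 (minus strand) for IFI6. Capitals mark each match to GAAANNGAAA, the core of the interferon-stimulated response element, on either strand.
IFIT1: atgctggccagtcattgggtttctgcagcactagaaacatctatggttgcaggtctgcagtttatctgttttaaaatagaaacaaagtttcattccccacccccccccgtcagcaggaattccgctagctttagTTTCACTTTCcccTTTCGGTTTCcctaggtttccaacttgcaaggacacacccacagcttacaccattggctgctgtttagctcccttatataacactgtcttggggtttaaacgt
IFIT3: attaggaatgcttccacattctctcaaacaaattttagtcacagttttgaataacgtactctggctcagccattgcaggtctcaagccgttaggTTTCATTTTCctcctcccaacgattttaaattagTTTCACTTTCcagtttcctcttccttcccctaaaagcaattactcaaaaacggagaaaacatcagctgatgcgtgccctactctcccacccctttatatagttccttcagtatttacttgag
IFI6: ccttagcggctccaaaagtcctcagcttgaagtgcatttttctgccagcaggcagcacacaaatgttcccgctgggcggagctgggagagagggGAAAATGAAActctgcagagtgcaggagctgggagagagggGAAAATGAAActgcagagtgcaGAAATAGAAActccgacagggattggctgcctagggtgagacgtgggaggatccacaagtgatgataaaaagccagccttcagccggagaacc
This motif was present in 839 of 27305 promoters (3.07%). It was found in 14 of the 26 tested interferon-stimulated genes with an entry and in 6 of the 7 called ones with an entry. Among all genes with an entry, it was present in 3 of 175 promoters (1.71%) of genes with a higher response in KO cells, in 12 of 184 (6.52%) of genes with a lower response and in 220 of 9915 (2.22%) of tested genes. The 12 include the 6 called interferon-stimulated genes counted above. A match describes the letters and not a bound site.

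IFIT1 (ENSG00000185745, chr10:89392546-89406486), which binds viral RNA that lacks a host cap methylation, measured 2.29, 2.21 and 2.59 FPKM in KO siPARP1 cells, against 10.4, 10.3 and 9.75 FPKM in untreated KO cells, and 6.81, 6.59 and 6.5 FPKM in WT siPARP1 cells, against 5.79, 6.39 and 6.02 FPKM in untreated WT cells. All KO siPARP1 libraries lay below all other libraries, and the untreated KO libraries were the highest. The log2 change with siPARP1 was -1.73 (adjusted p = 1.09e-08) in KO cells and 0.11 (adjusted p = 0.137) in WT cells, an interaction of -1.84 ± 0.083 (SE; adjusted p = 5.82e-06). IFIT3, a partner of IFIT1 encoded beside it, measured 3.83, 4.03 and 3.85 FPKM in KO siPARP1 cells, against 13.9, 14.3 and 14.1 FPKM in untreated KO cells, and 9.96, 10.4 and 10.4 FPKM in WT siPARP1 cells, against 12.9, 12.2 and 14.1 FPKM in untreated WT cells. It was lower with siPARP1 in both genotypes, and the KO siPARP1 libraries were again the lowest. Its interaction was -1.31 ± 0.078 (SE; adjusted p = 2.87e-05).

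IFI6, IFI44 and IFI35 changed in opposite directions in the genotypes. IFI6, a mitochondrial and ER protein that limits flavivirus replication, measured 6.47, 6.47 and 4.3 FPKM in KO siPARP1 cells, against 8.1, 8.99 and 8.7 FPKM in untreated KO cells, and 14.8, 14.6 and 14.7 FPKM in WT siPARP1 cells, against 9.12, 10.5 and 8.39 FPKM in untreated WT cells. The siPARP1 libraries were below the untreated ones in KO cells and above them in WT cells, with no overlap in either. The interaction was -1.13 ± 0.18 (SE; adjusted p = 0.00811). IFI44, an interferon-induced cytoplasmic protein, measured 0.408, 1.04 and 0.592 FPKM in KO siPARP1 cells, against 1.36, 1.69 and 1.46 FPKM in untreated KO cells, and 5.69, 5.96 and 4.78 FPKM in WT siPARP1 cells, against 2.69, 3.08 and 2.88 FPKM in untreated WT cells. It fell by 0.59 in KO cells and rose by 0.73 in WT cells on the log2 scale, an interaction of -1.33 ± 0.18 (SE; adjusted p = 0.00395). IFI35 also passed in both directions, with a log2 change of -0.40 in KO cells and 0.17 in WT cells. OAS2 and OASL, of the oligoadenylate synthetase family that activates RNase L, gave -0.13 and -0.04 log2 in KO cells, without passing, and rose by 0.88 and 0.87 log2 in WT cells. DDX60, an antiviral helicase, had an interaction of -0.65 (adjusted p = 0.0125). ISG15, the ubiquitin-like modifier, rose in both genotypes, by 0.76 log2 in KO cells and 1.08 log2 in WT cells. Of the factors that drive the list, STAT2 gave 0.10 (adjusted p = 0.681) and IRF9 -0.50 (adjusted p = 0.224), and neither was called.

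**Figure D2:**
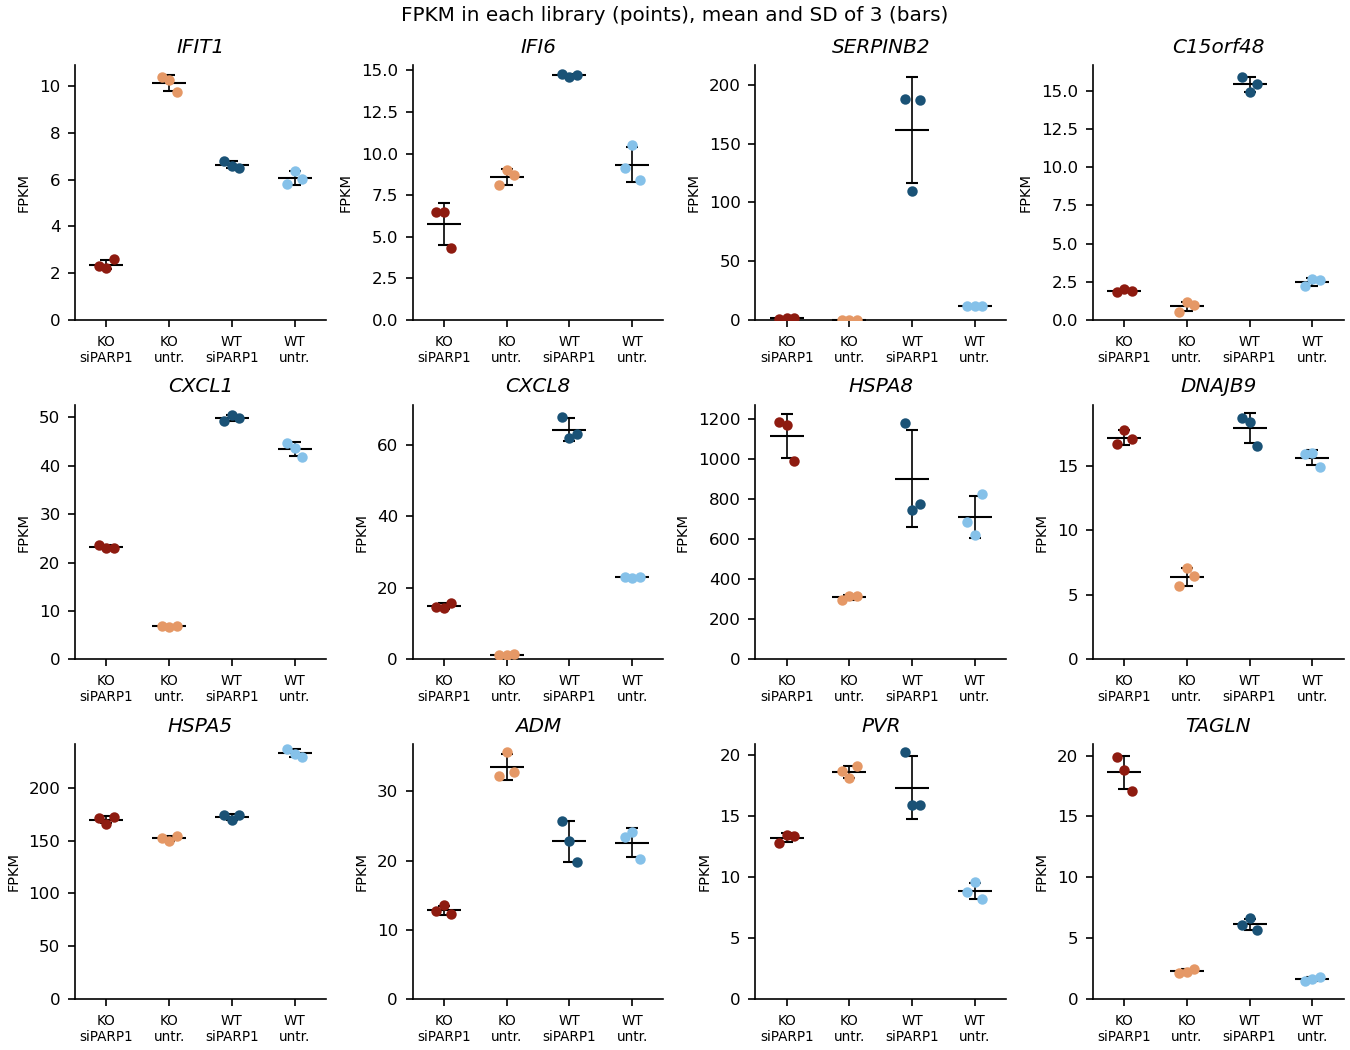
FPKM in each library (points) with the mean and SD of each group for 12 genes, in the order KO siPARP1, KO untreated, WT siPARP1, WT untreated, each panel on its own linear axis. IFIT1 is lowest in KO siPARP1 cells, HSPA5 overlaps between the genotypes under siPARP1, and CXCL1 and CXCL8 are lower in both KO groups than in both WT groups.

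Chaperones of the endoplasmic reticulum (ER) and their regulators form the unfolded protein response, by which cells raise folding capacity through ATF6, IRE1 and XBP1. Many of them responded more positively to siPARP1 in KO cells. Of 26 tested members, 13 had a higher and 0 a lower response in KO cells, 23 estimates were positive and the median interaction was 0.33. At an unadjusted p under 0.05 the counts were 15 and 0, against 9.66% higher and 8.30% lower of all genes. SiPARP1 raised 14 and lowered 5 in KO cells, and raised 8 and lowered 9 in WT cells. Of all genes tested it raised 31.3% and lowered 22.4% in KO cells, and raised 29.2% and lowered 21.9% in WT cells. Under siPARP1 9 members were higher and 0 lower in KO than in WT cells, and without treatment 2 were higher and 8 lower. The shares of all genes were 10.6% higher and 10.2% lower under siPARP1, and 8.43% higher and 9.53% lower without treatment. The count of 13 fell to 6 without either WT library 3 or KO library 1, and lay between 7 and 10 without any other single library.

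DNAJB9, an ER co-chaperone that regulates IRE1, measured 16.7, 17.8 and 17.1 FPKM in KO siPARP1 cells, against 5.7, 7.08 and 6.43 FPKM in untreated KO cells, and 18.7, 18.4 and 16.6 FPKM in WT siPARP1 cells, against 15.9, 16 and 14.9 FPKM in untreated WT cells. The untreated KO libraries lay far below all other libraries. KO minus WT was -0.05 (adjusted p = 0.661) log2 with siPARP1 and -1.17 (adjusted p = 4.94e-06) without treatment, and the interaction was 1.11 ± 0.10 (SE; adjusted p = 0.000371). HSPA5, the main ER chaperone BiP, measured 171, 166 and 173 FPKM in KO siPARP1 cells, against 153, 149.9 and 154 FPKM in untreated KO cells, and 175, 169 and 174 FPKM in WT siPARP1 cells, against 237, 232 and 229 FPKM in untreated WT cells. With siPARP1 it was slightly higher in KO cells and lower in WT cells, and the siPARP1 libraries of the genotypes overlapped. Its interaction was 0.59 ± 0.053 (SE; adjusted p = 0.000359), whereas sums of the deposited transcript values gave 0.12 (adjusted p = 0.989). MANF, a secreted ER stress protein, measured 110.2, 135 and 124 FPKM in KO siPARP1 cells, against 69.6, 76.1 and 70.2 FPKM in untreated KO cells, and 95.3, 96 and 98.8 FPKM in WT siPARP1 cells, against 91.5, 93.2 and 89.8 FPKM in untreated WT cells. It rose in KO cells with no overlap, and its interaction was 0.68 ± 0.098 (SE; adjusted p = 0.00461).

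Smaller interactions passed for DNAJC3, which restrains PERK, at 0.48 (adjusted p = 0.00229), for SEC24D, a COPII coat subunit, at 0.45 (adjusted p = 0.00939), for CRELD2 at 0.45 (adjusted p = 0.0127) and for EDEM1, which hands misfolded glycoproteins to degradation, at 0.33 (adjusted p = 0.0243). SEC24D and PDIA4 fell in both genotypes and fell less in KO cells. XBP1 gave 0.53 (adjusted p = 0.323), ATF6 -0.10 (adjusted p = 0.44) and ERN1, which encodes IRE1, 0.10 (adjusted p = 0.79). None of these regulators passed the test.

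HSPA5 and HSP90B1 are shown because their promoters hold the ER stress response element, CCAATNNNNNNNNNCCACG, marked in capitals on either strand. The windows are chr9:125241344-125241593 (minus strand) for HSPA5 and chr12:103930160-103930409 (plus strand) for HSP90B1.
HSPA5: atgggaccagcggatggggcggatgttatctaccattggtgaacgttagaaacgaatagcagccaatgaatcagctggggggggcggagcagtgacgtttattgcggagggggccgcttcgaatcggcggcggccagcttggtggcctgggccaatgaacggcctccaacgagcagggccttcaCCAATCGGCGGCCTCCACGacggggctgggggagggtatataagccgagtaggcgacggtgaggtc
HSP90B1: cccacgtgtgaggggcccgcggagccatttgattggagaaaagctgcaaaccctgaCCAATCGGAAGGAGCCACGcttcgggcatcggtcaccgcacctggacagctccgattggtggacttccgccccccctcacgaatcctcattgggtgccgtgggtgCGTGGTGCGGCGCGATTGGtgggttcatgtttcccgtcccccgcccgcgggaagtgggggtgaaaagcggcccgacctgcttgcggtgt
The motif occurred in 22 of 27305 promoters (0.0806%), in 6 of the 24 tested ER members with an entry and in 3 of 11 called ones, which were HSPA5, HSP90B1 and CRELD2. Over the whole interaction it occurred in 5 of 175 promoters of genes with a higher response in KO cells (2.86%), in 0 of 184 of those with a lower response and in 14 of 9915 of tested genes (0.141%). These 5 include HSPA5, HSP90B1 and CRELD2, counted above.

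Among cytosolic heat shock chaperones, 4 of 18 tested members had a higher and 0 a lower response in KO cells, with a median of 0.10. Over all genes tested, 1.63% were higher and 1.69% lower. At an unadjusted p under 0.05 the counts were 5 and 1, against 9.66% and 8.30% of all genes. HSPA8, the constitutive Hsc70, measured 1186, 1168 and 987 FPKM in KO siPARP1 cells, against 297, 318 and 314 FPKM in untreated KO cells, and 1179, 747 and 775 FPKM in WT siPARP1 cells, against 687, 618 and 823 FPKM in untreated WT cells. The untreated KO libraries lay below all other libraries, and WT siPARP1 library 1 stood above the other WT libraries. The interaction was 1.52 ± 0.24 (SE; adjusted p = 0.00784) and 1.73 without that library. HSPA1A and HSPA1B, the stress-inducible Hsp70 genes, gave 1.28 (adjusted p = 4.84e-05) and 1.17 (adjusted p = 0.000181). They are near-identical neighbours, so how reads were divided between them is uncertain. DNAJA1, an Hsp40 co-chaperone, rose in both genotypes and further in KO cells, with an interaction of 0.37 (adjusted p = 0.00428). HSP90AA1 gave -0.38 (adjusted p = 0.282) and HSPH1 0.38 (adjusted p = 0.0582), and neither passed. HSPA2, another Hsp70 family gene outside this list, measured 3.1 ± 0.449 FPKM in KO siPARP1 cells and 3.33 ± 0.0908 FPKM in untreated KO cells, against 2.78 ± 0.189 FPKM in WT siPARP1 cells and 6.69 ± 0.112 FPKM in untreated WT cells, and its interaction was 0.94 (adjusted p = 0.00139). It gave -0.09 log2 in KO cells, which did not pass, and fell in WT cells.

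The neutrophil chemokines CXCL1, CXCL2 and CXCL8, which are NF-kB targets, rose further in KO cells on the log2(FPKM + 1) scale. KO cells began from a much lower level of them and remained below WT cells after siPARP1. Of 20 tested members of the NF-kB list, 4 had a higher and 1 a lower response in KO cells, against 1.63% and 1.69% of all genes tested. The median interaction was 0.33, against 0.0069 over all genes. At an unadjusted p under 0.05 the counts were 10 higher and 3 lower, against 9.66% and 8.30% of all genes. KO was lower than WT for 12 and higher for 1 of the 20 with siPARP1, against 16 lower and 0 higher without treatment. The shares of all genes were 10.2% lower and 10.6% higher with siPARP1, and 9.53% lower and 8.43% higher without treatment.

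CXCL1 (ENSG00000163739, chr4:73869393-73871242) and CXCL8 are secreted chemokines that attract neutrophils through CXCR1 and CXCR2. CXCL1 measured 23.7, 23 and 23 FPKM in KO siPARP1 cells, against 6.86, 6.66 and 6.99 FPKM in untreated KO cells, and 49.3, 50.4 and 49.8 FPKM in WT siPARP1 cells, against 44.6, 43.6 and 41.8 FPKM in untreated WT cells. The 4 groups did not overlap, and the WT change was small. The log2 change was 1.63 (adjusted p = 2.13e-09) in KO cells and 0.20 (adjusted p = 0.00258) in WT cells, an interaction of 1.43 ± 0.058 (SE; adjusted p = 3.96e-06). CXCL8 measured 14.7, 14.3 and 15.9 FPKM in KO siPARP1 cells, against 1.17, 1.25 and 1.64 FPKM in untreated KO cells, and 67.8, 61.8 and 62.9 FPKM in WT siPARP1 cells, against 23.1, 22.9 and 23 FPKM in untreated WT cells. It rose in both genotypes, and all KO siPARP1 libraries stayed below all untreated WT libraries. Read in FPKM, CXCL8 rose further in WT cells, unlike CXCL1 and CXCL2. Its interaction was 1.33 ± 0.11 (SE; adjusted p = 0.000181). CXCL2 measured 13.1, 13.1 and 11.1 FPKM in KO siPARP1 cells, against 3.33, 2.61 and 3.24 FPKM in untreated KO cells, and 20.5, 21 and 21.6 FPKM in WT siPARP1 cells, against 14.4, 15.4 and 13.7 FPKM in untreated WT cells. Its interaction was 1.22 ± 0.12 (SE; adjusted p = 0.000495), with KO siPARP1 libraries just below the untreated WT ones. IL6, an inflammatory cytokine, measured 10.1, 10.2 and 9.41 FPKM in KO siPARP1 cells, against 5.59, 5.74 and 5.2 FPKM in untreated KO cells, and 12.4, 14.8 and 13.9 FPKM in WT siPARP1 cells, against 14.9, 16.5 and 16.1 FPKM in untreated WT cells. It rose in KO cells and fell in WT cells, an interaction of 0.94 ± 0.10 (SE; adjusted p = 0.000851). CCL5, a chemokine for T cells that is also induced by interferon, went the other way, with a log2 change of 0.03 in KO cells, 0.71 in WT cells and an interaction of -0.69 (adjusted p = 0.0467) whose call was lost without any single library other than WT siPARP1 library 1. CCL5 met the level filter through the WT siPARP1 libraries alone. The NF-kB subunits gave 0.12 (adjusted p = 0.462) for NFKB1 and 0.52 (adjusted p = 0.291) for RELB, and the inhibitor NFKBIA gave 0.25 (adjusted p = 0.256), none of them called.

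The promoters of CXCL1 and CXCL2 are shown because both hold a match to the NF-kB site, in capitals, close before the start. They lie at chr4:73869143-73869392 (plus strand) for CXCL1 and at chr4:74099196-74099445 (minus strand) for CXCL2.
CXCL1: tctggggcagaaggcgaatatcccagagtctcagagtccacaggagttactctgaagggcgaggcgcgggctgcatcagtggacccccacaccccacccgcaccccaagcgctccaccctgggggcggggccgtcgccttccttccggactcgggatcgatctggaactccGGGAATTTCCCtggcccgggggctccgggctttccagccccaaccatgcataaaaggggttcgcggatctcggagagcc
CXCL2: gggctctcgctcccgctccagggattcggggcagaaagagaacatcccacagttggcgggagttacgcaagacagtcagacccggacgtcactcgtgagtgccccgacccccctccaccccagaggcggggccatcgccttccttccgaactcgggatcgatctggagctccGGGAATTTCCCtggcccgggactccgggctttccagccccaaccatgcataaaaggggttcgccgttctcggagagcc
A match on either strand was present in 2614 of 27305 promoters (9.57%), in 10 of the 16 tested members with an entry and in 3 of the 4 called ones with an entry. The share was 15.4% of promoters of genes with a higher response in KO cells, 12% of those with a lower response and 11.6% of tested genes.

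Genes of hypoxia and glycolysis are raised by HIF factors when oxygen is low. Of 33 tested members, 9 had a lower and 0 a higher response in KO than in WT cells, 28 estimates were negative and the median was -0.29. At an unadjusted p under 0.05 there were 13 lower and 1 higher, against 8.30% and 9.66% of all genes. SiPARP1 lowered 21 and raised 3 in KO cells, and lowered 13 and raised 4 in WT cells. Of all genes tested it lowered 22.4% and raised 31.3% in KO cells, and lowered 21.9% and raised 29.2% in WT cells. KO was higher than WT for 6 and lower for 8 under siPARP1, against 14 higher and 2 lower without treatment. The shares of all genes were 10.6% higher and 10.2% lower under siPARP1, and 8.43% higher and 9.53% lower without treatment.

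ADM, the vasodilator peptide adrenomedullin, measured 12.7, 13.5 and 12.2 FPKM in KO siPARP1 cells, against 32.2, 35.6 and 32.8 FPKM in untreated KO cells, and 25.7, 22.8 and 19.8 FPKM in WT siPARP1 cells, against 23.4, 24.1 and 20.2 FPKM in untreated WT cells. KO siPARP1 libraries were the lowest and untreated KO libraries the highest, and the WT groups overlapped. The interaction was -1.33 ± 0.13 (SE; adjusted p = 0.00062). BNIP3, a mitophagy receptor, measured 27.7, 28.5 and 27.3 FPKM in KO siPARP1 cells, against 95.6, 95.3 and 95.1 FPKM in untreated KO cells, and 31.9, 31.9 and 31.9 FPKM in WT siPARP1 cells, against 67.4, 68.9 and 65.2 FPKM in untreated WT cells. It fell in both genotypes, and the libraries of each group were tightly placed. Its interaction was -0.69 ± 0.053 (SE; adjusted p = 0.000172). Among glycolytic enzymes, PGK1 gave -0.63 (adjusted p = 0.000181), GAPDH -0.40 (adjusted p = 0.0109), LDHA -0.36 (adjusted p = 0.0429), PGAM1 -0.29 (adjusted p = 0.0201) and HK1 -0.56 (adjusted p = 0.0154), and PFKFB4, which sets the level of the glycolytic activator fructose 2,6-bisphosphate, gave -0.82 (adjusted p = 0.00315). ALDOA, ENO1 and PKM, at -0.53 (adjusted p = 0.0947), -0.10 (adjusted p = 0.784) and 0.27 (adjusted p = 0.305), did not pass. Nor did VEGFA at -0.15 (adjusted p = 0.872).

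**Figure D3:**
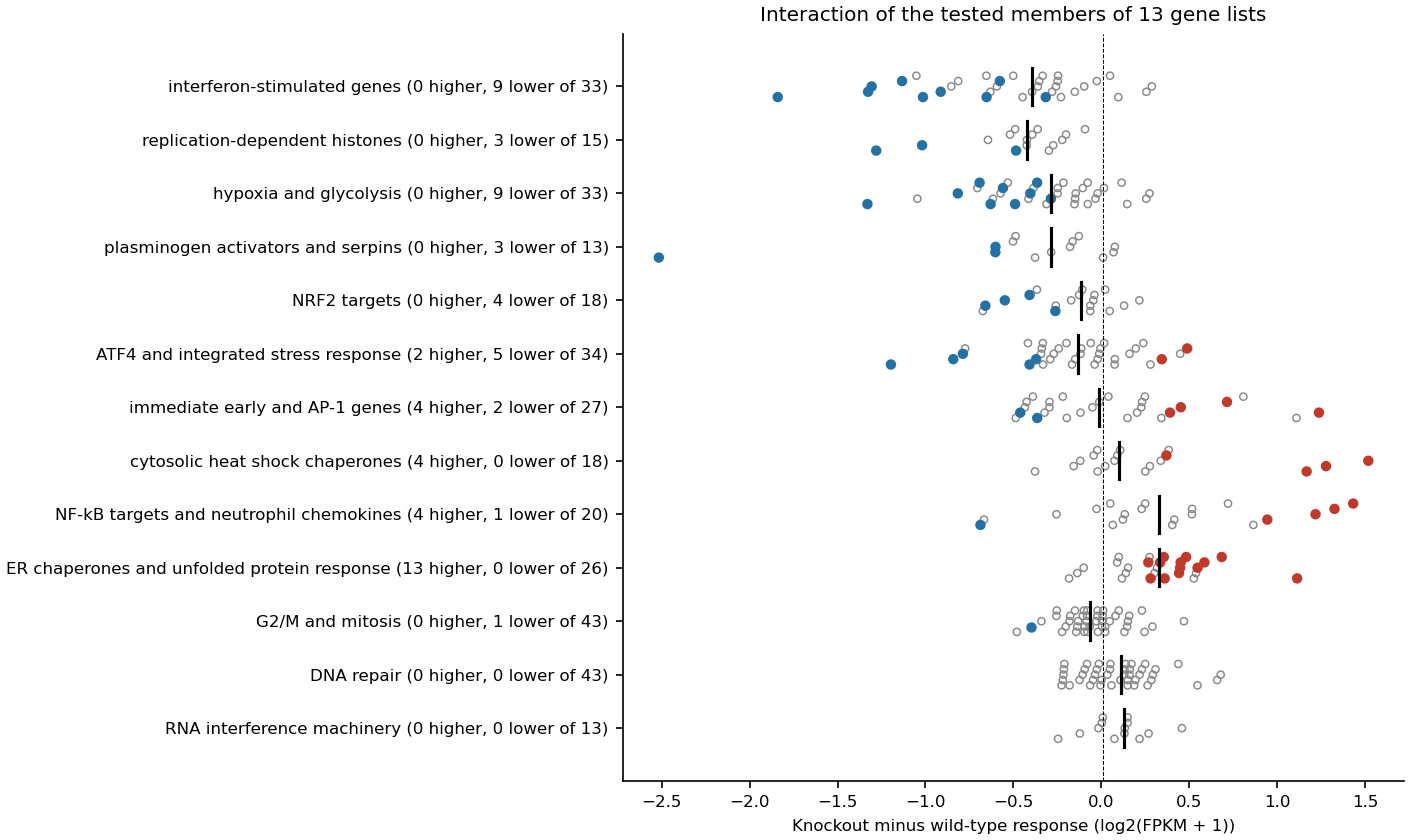
Interaction of each tested member (points) in 13 gene lists, in log2 units, filled where it passed at adjusted p under 0.05, with the median of each list as a bar and the median of all genes as a dashed line. Interferon-stimulated, hypoxia and histone genes lie mostly below 0, and ER chaperones and NF-kB targets mostly above it.

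ATF4 targets of the integrated stress response held calls of both signs. Of 34 tested members, 5 had a lower and 2 a higher response in KO cells, against 1.69% and 1.63% of all genes tested. Estimates were negative for 24, with a median of -0.13. At an unadjusted p under 0.05 there were 12 lower and 4 higher, against 8.30% and 9.66% of all genes. SiPARP1 lowered 23 and raised 5 in KO cells, and lowered 19 and raised 7 in WT cells. Of all genes tested it lowered 22.4% and raised 31.3% in KO cells, and lowered 21.9% and raised 29.2% in WT cells. DDIT4, an inhibitor of mTORC1, fell in both genotypes, by 2.29 log2 in KO cells and 1.45 log2 in WT cells. Its interaction was -0.84 ± 0.066 (SE; adjusted p = 0.000181). STC2, a secreted glycoprotein, gave 0.08 log2 in KO cells and rose by 0.86 log2 in WT cells, an interaction of -0.79 (adjusted p = 0.000371). PPP1R15A, which restarts translation by dephosphorylating eIF2alpha, rose more in KO cells, at 0.49 (adjusted p = 0.00811). CHAC1, a glutathione-degrading enzyme, gave -1.20 (adjusted p = 0.0462) and passed without WT library 1 or 2 but lost its call without any other single library. ATF4 itself gave -0.17 (adjusted p = 0.832) and DDIT3, which encodes CHOP, -0.42 (adjusted p = 0.23).

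Several of the largest negative interactions were genes that siPARP1 raised strongly in WT cells and that were low in KO cells. SERPINB2, an inhibitor of the plasminogen activators uPA and tPA, measured 1.14, 1.85 and 1.48 FPKM in KO siPARP1 cells, against 0.239, 0.117 and 0.0909 FPKM in untreated KO cells, and 188, 109 and 187 FPKM in WT siPARP1 cells, against 11.7, 11.7 and 11.9 FPKM in untreated WT cells. Every WT library stood above every KO library, and the KO siPARP1 libraries stood above the untreated KO ones. The interaction was -2.52 ± 0.26 (SE; adjusted p = 0.000789), but on the linear scale the KO siPARP1 mean was 1001% of the untreated KO mean and the WT siPARP1 mean was 1370% of the untreated WT mean. With a pseudocount of 0.1 the value was -1.03 (adjusted p = 0.19), so the call depends on the pseudocount. SERPINB7, its neighbour, gave -0.60 (adjusted p = 0.00154), and F3, the tissue factor that starts coagulation, -0.60 (adjusted p = 0.000371). These were the 3 called members of 13 tested plasminogen, coagulation and serpin genes, all lower, against 1.69% called lower of all genes tested.

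AADAC, a microsomal esterase of drug metabolism, measured 0.356, 0.191 and 0.277 FPKM in KO siPARP1 cells and was listed at 0 in all 3 untreated KO libraries, and it measured 9.08, 9.62 and 8.6 FPKM in WT siPARP1 cells, against 0.391, 0.61 and 0.666 FPKM in untreated WT cells. The WT siPARP1 libraries stood far above all others and were the only ones at 1 FPKM or more. AADAC was therefore among the tested genes through these libraries alone, and its interaction of -2.35 is given as a description. Its pseudogene neighbour AADACP1 gave -1.62 (adjusted p = 0.002), and -0.55 (adjusted p = 0.583) with a pseudocount of 0.1. MMP1, a collagenase, measured 0.271, 0.0855 and 0.0785 FPKM in KO siPARP1 cells and was listed at 0 in the untreated KO libraries as well, and it measured 1.96, 2.88 and 2.02 FPKM in WT siPARP1 cells, against 0.0264, 0.0906 and 0.0545 FPKM in untreated WT cells. MMP1 likewise reached 1 FPKM in WT siPARP1 libraries only, so its interaction of -1.44 describes that rise and is not a test of it. C15orf48, which encodes a small protein related to the NDUFA4 subunit of respiratory complex IV, measured 1.84, 2.01 and 1.92 FPKM in KO siPARP1 cells, against 0.547, 1.15 and 0.955 FPKM in untreated KO cells, and 15.9, 14.9 and 15.4 FPKM in WT siPARP1 cells, against 2.2, 2.68 and 2.64 FPKM in untreated WT cells. It rose in both genotypes, with all WT siPARP1 libraries far above all others, and the interaction was -1.58 ± 0.15 (SE; adjusted p = 0.000495).

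Opposite directions marked a further group of genes. PMAIP1, the BH3-only protein NOXA, measured 5.76, 5.9 and 6.09 FPKM in KO siPARP1 cells, against 10.3, 11.1 and 12.9 FPKM in untreated KO cells, and 9.74, 9.54 and 9.04 FPKM in WT siPARP1 cells, against 7.14, 7.47 and 7.95 FPKM in untreated WT cells. It fell in KO cells and rose in WT cells with no overlap in either, an interaction of -1.14 ± 0.11 (SE; adjusted p = 0.000371). PVR, the poliovirus receptor and a ligand of DNAM-1 and TIGIT on lymphocytes, measured 12.8, 13.5 and 13.3 FPKM in KO siPARP1 cells, against 18.7, 18.1 and 19.1 FPKM in untreated KO cells, and 20.3, 15.9 and 15.9 FPKM in WT siPARP1 cells, against 8.8, 9.57 and 8.22 FPKM in untreated WT cells. It also fell in KO and rose in WT cells, with an interaction of -1.35 ± 0.13 (SE; adjusted p = 0.000371).

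TIMP3, a matrix-bound inhibitor of metalloproteinases, went the other way and rose in KO cells and fell in WT cells. It measured 6.39, 6.33 and 6.17 FPKM in KO siPARP1 cells, against 3.64, 3.24 and 3.74 FPKM in untreated KO cells, and 59.4, 58.9 and 59.4 FPKM in WT siPARP1 cells, against 73.3, 72.3 and 72.3 FPKM in untreated WT cells. The WT libraries stood far above the KO libraries throughout, and the interaction was 0.98 ± 0.067 (SE; adjusted p = 8.97e-05). RPE, which interconverts pentose phosphates, measured 13.2, 9.4 and 10.5 FPKM in KO siPARP1 cells, against 35.4, 50.3 and 46 FPKM in untreated KO cells, and 37, 31.1 and 20.1 FPKM in WT siPARP1 cells, against 27.2, 23.8 and 24.7 FPKM in untreated WT cells. The KO libraries fell without overlap, and the WT siPARP1 libraries ranged widely across the untreated WT level. Its interaction was -2.07 ± 0.29 (SE; adjusted p = 0.0046). PADI2, an arginine deiminase, fell in both genotypes, to 1.71, 1.85 and 1.75 FPKM in KO siPARP1 cells, against 14.2, 15.5 and 16.1 FPKM in untreated KO cells, and to 0.997, 0.442 and 0.756 FPKM in WT siPARP1 cells, against 3.33, 2.98 and 2.05 FPKM in untreated WT cells. Its interaction was -1.43 (adjusted p = 0.00411), and with a pseudocount of 0.1 its adjusted p was 0.0955.

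Replication-dependent histone genes make the histones of S phase, and most of their mRNAs end without a poly(A) tail. Of 15 tested members 3 had a lower and 0 a higher response in KO cells, all 15 estimates were negative and the median was -0.42. At an unadjusted p under 0.05 there were 9 lower and 0 higher, against 8.30% and 9.66% of all genes. With all 18 libraries in a single fit 8 were called lower. That fit called 2.52% of all genes lower, against 1.69% in the fit of 12 libraries. SiPARP1 raised 4 of them and lowered 2 in KO cells, and raised 12 and lowered 0 in WT cells. Of all genes tested it raised 31.3% and lowered 22.4% in KO cells, and raised 29.2% and lowered 21.9% in WT cells. H2BC4 fell in KO cells by 0.40 log2 and rose in WT cells by 0.88 log2, an interaction of -1.28 ± 0.17 (SE; adjusted p = 0.00327). Its neighbour H4C8 gave -1.02 (adjusted p = 0.0148). The libraries were primed with oligo(dT), and the part this plays in these values was not tested.

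TAGLN, FOS, LBH and PDP1 gave large positive values outside the chaperones and chemokines. TAGLN, the actin-binding protein transgelin, measured 19.9, 18.9 and 17.1 FPKM in KO siPARP1 cells, against 2.17, 2.2 and 2.49 FPKM in untreated KO cells, and 6.11, 6.62 and 5.67 FPKM in WT siPARP1 cells, against 1.45, 1.67 and 1.79 FPKM in untreated WT cells. It rose in both genotypes with no overlap, and the KO siPARP1 libraries were the highest. The interaction was 1.14 ± 0.11 (SE; adjusted p = 0.000495). FOS, an AP-1 subunit, measured 9.65, 8.69 and 9.09 FPKM in KO siPARP1 cells, against 1.36, 1.08 and 1.55 FPKM in untreated KO cells, and 9.56, 7.5 and 7.46 FPKM in WT siPARP1 cells, against 3.82, 3.83 and 4.12 FPKM in untreated WT cells. The siPARP1 levels of the genotypes overlapped, while untreated KO libraries were below untreated WT ones, and the interaction was 1.24 ± 0.14 (SE; adjusted p = 0.00131). LBH, a transcription cofactor, gave 1.04 (adjusted p = 0.0022). PDP1, which activates pyruvate dehydrogenase, measured 82.3, 45 and 81.7 FPKM in KO siPARP1 cells, against 15.6, 12.9 and 16.6 FPKM in untreated KO cells, and 31.3, 27.7 and 43.5 FPKM in WT siPARP1 cells, against 17.9, 35.3 and 38.4 FPKM in untreated WT cells. The KO siPARP1 libraries spread widely, and its interaction of 1.89 (adjusted p = 0.0475) lost its call in 10 of the 12 fits that left out 1 library. In the lists behind these genes, 3 of 28 TGF-beta response members were higher and 3 lower, and 4 of 27 immediate early genes were higher and 2 lower. Over all genes tested, 1.63% were called higher and 1.69% lower. Leaving out 1 library lowered the count of higher genes to 1 for TGF-beta (WT library 1) and to 2 for immediate early genes (any of 7 libraries). JUN was lower at -0.46 (adjusted p = 0.00395). ID1, a BMP-induced inhibitor of differentiation factors, was lower at -0.94 (adjusted p = 0.00228), and ID2 was higher at 0.51 (adjusted p = 0.0256), a call lost in 7 of the 12 fits without 1 library and with a replicate block.

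NRF2 targets, which detoxify oxidants, held 4 lower and 0 higher calls of 18, against 1.69% and 1.63% of all genes tested, with a median of -0.12. At an unadjusted p under 0.05 there were 7 lower and 0 higher, against 8.30% and 9.66% of all genes. The 4 calls were TXN, thioredoxin, at -0.66 (adjusted p = 0.00211), ABCC2, an export pump, at -0.55 (adjusted p = 0.00134), SLC7A11, the cystine importer, at -0.41 (adjusted p = 0.0152), and SRXN1 at -0.26 (adjusted p = 0.0292). The call of SRXN1 was lost in 11 of the 12 fits without 1 library, with a replicate block and with rescaling without mitochondrial transcripts. Transcripts encoded in mitochondria held 3 higher calls and 1 lower of 15, with a median of 0.28, and 5 higher without WT library 2. At an unadjusted p under 0.05 there were 10 higher and 1 lower, against 9.66% and 8.30% of all genes. The 16S ribosomal RNA MT-RNR2 was lower at -0.59 (adjusted p = 0.00828), and the complex I subunits MT-ND1 and MT-ND2 were higher at 0.38 (adjusted p = 0.0138) and 0.51 (adjusted p = 0.0125). With no filter on low values the calls of all 3 were lost, at adjusted p values of 0.143 to 0.172. CD68, a lysosomal glycoprotein listed as a leukocyte marker, gave -0.77 (adjusted p = 0.0152), and it measured 9.82 ± 0.388 FPKM in KO siPARP1 cells and 8.52 ± 1.16 FPKM in untreated KO cells, against 21.5 ± 2.32 FPKM in WT siPARP1 cells and 10.5 ± 0.382 FPKM in untreated WT cells. The summed leukocyte markers, most of which are CD68, were 9.74 to 10.7 FPKM in KO siPARP1 cells, 8.04 to 9.97 FPKM in untreated KO cells, 19.7 to 24.6 FPKM in WT siPARP1 cells and 10.9 to 11.7 FPKM in untreated WT cells. CD3E, of T cells, was at 0 in all 12 libraries.

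Some lists not counted above held a larger share of calls than the 3.32% of all genes tested. Epithelial markers held 1 higher and 3 lower of 13, and BMP and ID genes 1 and 2 of 10. YAP/TEAD targets held 2 and 2 of 21. Matrix metalloproteinases and TIMPs held 2 higher and 1 lower of 15, the lower being MMP1. The lists that follow held calls in 0 to 4.17% of tested members, which is close to the share of all genes. The DNA repair list, where PARP1 itself acts, had 0 of 43 tested members called by limma and 5 higher and 1 lower at an unadjusted p under 0.05, against 9.66% and 8.30% of all genes, and its most abundant members gave 0.06 (adjusted p = 0.638) for XRCC6 and -0.06 (adjusted p = 0.636) for XRCC5, the Ku subunits. Of 24 tested PARP enzymes and hydrolases 1 was called, ADPRS, which removes ADP-ribose from serine, at -0.35 (adjusted p = 0.046). That call was lost in 11 of the 12 fits without 1 library and in 4 alternatives, and 20 of the 24 estimates were negative, 7 of them and 0 positive ones at an unadjusted p under 0.05. The WASH and retromer list had 0 of 19 members called by limma (2 at an unadjusted p under 0.05) and the TRIM family 0 of 35 (4). G1/S genes had 1 call of 41 (7), G2/M genes 1 of 43 (10), cytosolic ribosomal proteins 1 of 78 (8) and nuclear-encoded respiratory chain subunits 0 of 40 (8, all lower). Cholesterol synthesis had 1 call of 25, with 10 lower and 0 higher at an unadjusted p under 0.05 and a median of -0.22. The mesenchymal list had 0 of 25 members called (6), with VIM at -0.06 (adjusted p = 0.731), and the RNA interference machinery that processes the siRNA 0 of 13 (1).

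The interaction can be read as a change in the gap between genotypes. It is the siPARP1 gap minus the untreated gap in the same libraries. A called gene is therefore almost bound to show a gap under at least 1 condition, and the counts that follow are a description. Over all genes tested, KO was higher for 10.6% and lower for 10.2% under siPARP1, and higher for 8.43% and lower for 9.53% without treatment. Among the 507 genes, KO and WT differed under siPARP1 only in 166, without treatment only in 176, under both in 164 and under neither in 1. The sign of the gap was opposite under the 2 conditions in 62 of those 164. The gap was smaller under siPARP1 in 253 genes and larger in 254. For IFIT1 it was -1.18 (adjusted p = 9.21e-07) with siPARP1 and 0.66 (adjusted p = 5.31e-05) without, for CXCL1 -1.07 (adjusted p = 1.56e-07) and -2.50 (adjusted p = 2.44e-10), for HSPA5 -0.02 (adjusted p = 0.733) and -0.61 (adjusted p = 4.43e-06), and for BNIP3 -0.19 (adjusted p = 0.00544) and 0.50 (adjusted p = 1.71e-05).

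**Figure D4:**
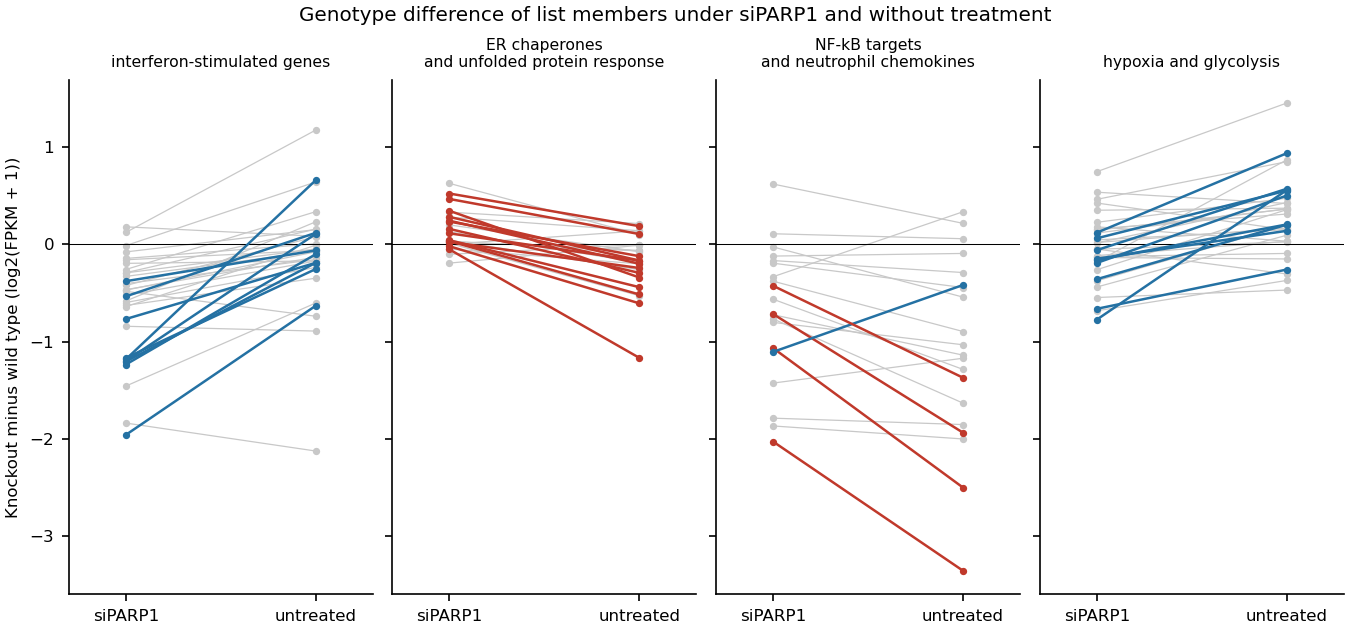
KO minus WT difference on the log2(FPKM + 1) scale with siPARP1 (left point) and without treatment (right point) for each tested member of 4 lists, coloured where the interaction passed. Most lines of interferon-stimulated and hypoxia genes are lower at the siPARP1 point, and most lines of ER chaperones and NF-kB targets are higher there.

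Some called genes lay near each other in the genome. Of 487 calls with a position in GENCODE 29, 99 lay in 44 runs of called genes within 200000 bases of each other, and 31 runs were of 1 direction. How many of any other 487 genes would lie in such runs was not computed, so these counts are a description. AADAC and AADACP1 formed a run of 3 lower genes with a noncoding neighbour at chr3:151770428-151828488. F2RL2, F2R and F2RL1, protease-activated receptors of the thrombin receptor family, lay at chr5:76615482-76835315 and were all lower, at -1.43 (adjusted p = 0.000202), -0.40 (adjusted p = 0.0113) and -0.48 (adjusted p = 0.0245). These receptors were singled out after their values were seen. By chromosome the share called ran up to 18.9% of 37 mitochondrial genes and was 5.91% on chromosome 18, the highest of the nuclear ones.

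Olaparib, which blocks the catalytic activity of PARP enzymes, gave its own genotype dependence in a fit of all 18 libraries (15764 genes). The olaparib interaction was called for 482 genes (3.06%; 1.40% higher and 1.66% lower) and the siPARP1 interaction for 829 (5.26%; 2.74% higher and 2.52% lower) in that fit, and 559 genes (3.55%) differed between them, 294 (1.87%) with the siPARP1 interaction higher and 265 (1.68%) lower. The treatments differed in agent, in duration and in the use of transfection, and both interactions share the same untreated libraries, so the values are given side by side.

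Several interferon-stimulated genes differed between the agents. IFIT1 gave -1.84 with siPARP1 and 0.33 (adjusted p = 0.024) with olaparib, a difference of -2.17 ± 0.072 (SE; adjusted p = 5.89e-10). IFIT3 gave -1.31 and -0.10 (adjusted p = 0.543), a difference of -1.20 ± 0.074 (SE; adjusted p = 4.32e-07), and IFI44 -1.33 and 0.25 (adjusted p = 0.491), a difference of -1.58 ± 0.16 (SE; adjusted p = 9.04e-05). Over the list, 8 of the tested members had a lower and 1 a higher siPARP1 interaction. SERPINB2 gave -2.52 and 0.16 (adjusted p = 0.831), a difference of -2.67 ± 0.26 (SE; adjusted p = 6.84e-05), and C15orf48 -1.58 and 0.36 (adjusted p = 0.225), a difference of -1.94 ± 0.14 (SE; adjusted p = 4.03e-06). TAGLN gave 1.14 with siPARP1 and -0.11 (adjusted p = 0.783) with olaparib, a difference of 1.25 ± 0.15 (SE; adjusted p = 0.000322).

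CXCL1, CXCL8 and TIMP3 were called under both agents, with larger values under olaparib. CXCL1 gave 1.43 with siPARP1 and 2.19 (adjusted p = 1.65e-11) with olaparib, a difference of -0.75 ± 0.059 (SE; adjusted p = 7.26e-06). CXCL8 gave 1.33 and 2.15 (adjusted p = 1.63e-08), a difference of -0.83 ± 0.099 (SE; adjusted p = 0.000309). TIMP3 gave 0.98 and 2.19 (adjusted p = 1.65e-11), a difference of -1.22 ± 0.057 (SE; adjusted p = 3.30e-08). For DNAJB9, HSPA5, BNIP3 and HSPA8 no difference passed, and the SE gives what the data allow. DNAJB9 gave 1.11 and 0.94 (adjusted p = 0.000383), a difference of 0.17 ± 0.11 (SE; adjusted p = 0.47). HSPA5 gave 0.59 and 0.63 (adjusted p = 6.38e-06), a difference of -0.04 ± 0.049 (SE; adjusted p = 0.732). BNIP3 gave -0.69 and -0.64 (adjusted p = 9.11e-06), a difference of -0.05 ± 0.052 (SE; adjusted p = 0.667). HSPA8 gave 1.52 and 1.21 (adjusted p = 0.0043), a difference of 0.31 ± 0.20 (SE; adjusted p = 0.467). Of the 33 hypoxia members, 3 had a lower and 0 a higher siPARP1 than olaparib interaction, namely ADM, LDHA and PGAM1. ADM gave -1.33 with siPARP1 and 0.14 (adjusted p = 0.89) with olaparib, a difference of -1.47 ± 0.33 (SE; adjusted p = 0.0257).

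The difference was also large for MIR137 and LASP1, with few libraries behind it. MIR137, a microRNA locus, measured 5.72, 7.23 and 6.61 FPKM in KO siPARP1 cells, against 0.108, 0.124 and 0.108 FPKM in untreated KO cells, and 0.108, 2.94 and 0.127 FPKM in WT siPARP1 cells, against 0.0683, 0.11 and 0.073 FPKM in untreated WT cells. The KO siPARP1 libraries were high, and 1 WT siPARP1 library was raised. Its siPARP1 interaction of 2.10 (adjusted p = 0.0738) was not called, and the difference was 1.97 ± 0.47 (SE; adjusted p = 0.0329). LASP1, an actin-binding adaptor, measured 144, 148 and 146 FPKM in KO siPARP1 cells, against 59.4, 62.8 and 236 FPKM in untreated KO cells, and 138, 139.7 and 143 FPKM in WT siPARP1 cells, against 203, 209 and 205 FPKM in untreated WT cells. Untreated KO library 3 was far above the other untreated KO libraries. The difference was 1.93 ± 0.49 (SE; adjusted p = 0.0436), while the siPARP1 interaction itself gave 1.15 (adjusted p = 0.336).

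**Figure D5:**
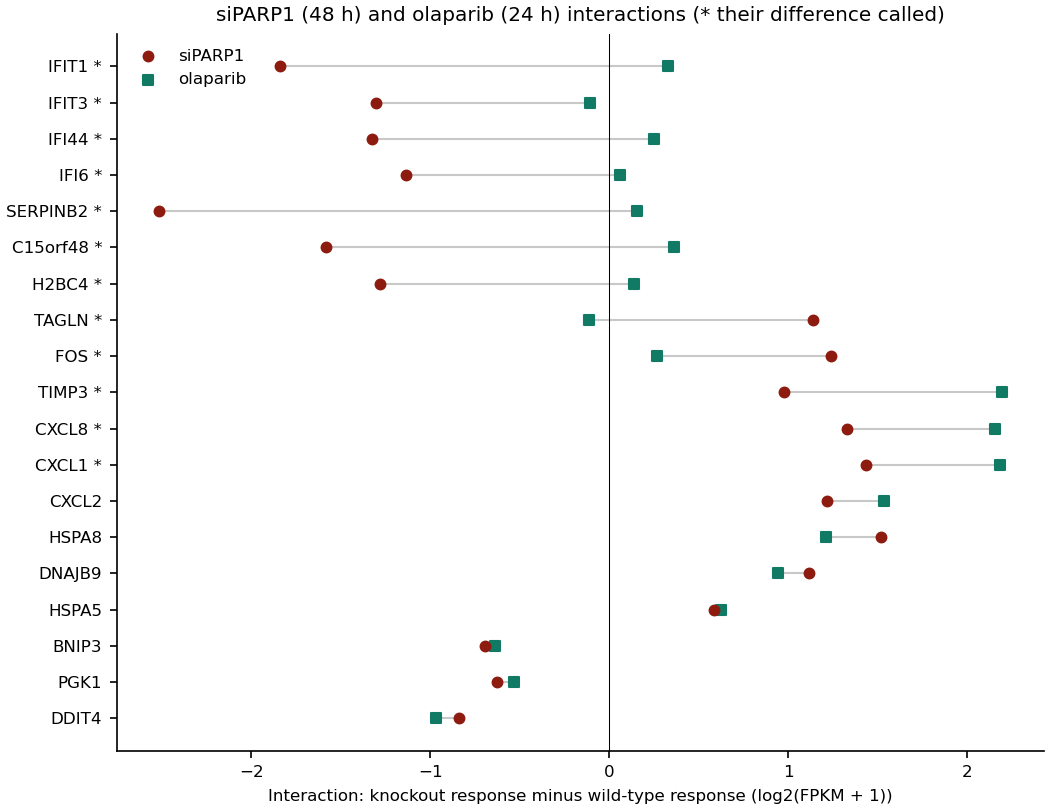
Interaction with genotype of siPARP1 and of olaparib for 19 genes, in log2 units from the fit of 18 libraries, with an asterisk where the difference between them passed at adjusted p under 0.05. IFIT1, SERPINB2 and C15orf48 are negative with siPARP1 alone, whereas DNAJB9, HSPA5 and BNIP3 have estimates of the same sign with both agents.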

How the data were processed

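The authors deposited FPKM values per gene and per transcript for 18 libraries, and both tables were used as deposited. Per the submitters' processing notes, the tools were DESeq2 1.38.3, StringTie 2.2.1, featureCounts 2.0.3, HISAT2 2.2.1 and fastp 0.23.2, on GRCh38. Their roles, the annotation and the strand setting behind the FPKM values are not given in the sources. Per the labels' protocols, RNA came from cells in 6-well plates and libraries were primed with oligo(dT). Read counts were not used here, so limma 3.58.1 (R 4.3.3) was run on log2(FPKM + 1). The fit held 4 groups and 12 libraries. Its prior variance followed the mean level, with 2.03 prior and 8 residual degrees of freedom. A gene was called at a Benjamini-Hochberg adjusted p under 0.05 over all 15251 genes tested, two-sided. Log2 values are differences on the log2(FPKM + 1) scale, which understates changes of low genes. Errors of log2 values are SE, those of FPKM are SD over 3 libraries, and coordinates are those of GENCODE 29. FPKM values are shares of a library, and unnamed loci held a mean 43.9% of them in KO siPARP1 cells, 48.75% in untreated KO cells, 45.4% in WT siPARP1 cells and 49.3% in untreated WT cells. The fit was run on simulated data with independent errors. These hold no effects shared between libraries, so the run checks the computation and not the independence of these libraries.

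The members and the 38 gene lists, of which 37 had a tested member, were chosen with earlier results of these data known. Named genes were TRIM27, PARP1 and PAX6, the 12 largest interactions in each direction among called genes whose highest group averaged 5 FPKM or more and with no overlap of the 9 library differences of each genotype, the 8 largest of opposite sign, the 4 largest of each same-sign kind, up to 4 called members per list (2 abundant ones where none was called), and the 6 largest differences from olaparib. Some genes that meet this rule are not reported here. Other list members are given where a list's range needed them. Promoters were read from RefSeq sequences (GRCh38.p14) and searched on both strands. Alternatives were other pseudocounts, filters, scalings, prior settings and thresholds, transcript sums, a fit of all libraries, a replicate block, leaving out each library and, added after seeing the data, leaving out genes that met the level filter through 1 group. Replicate numbers are not said to mark shared cultures, so they were not taken to pair libraries. Deviations from group means correlated at -0.0644 to 0.0701 between same-numbered libraries of different groups. Between differently numbered ones they correlated at -0.113 to 0.0608. The highest values were of same-numbered libraries, and these low correlations do not settle whether numbers pair libraries.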

Additional observations from a re-analysis of the deposited data

Results flagged for a closer look

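The siPARP1 response differed between KO and WT cells, by a test of the difference itself, for 507 genes, and the siPARP1 interaction differed from the olaparib interaction for 559 genes. Named genes with a called interaction of at least 1 log2 in size are listed here for a second look, and no cause was tested for any of them. No gap test for single libraries was run in groups of 3, and libraries that stood apart for a gene are given with that gene.

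Lower responses in KO cells were found for SERPINB2 (-2.52), AADAC (-2.35), RPE (-2.07), IFIT1 (-1.84), AADACP1 (-1.62), C15orf48 (-1.58), MMP1 (-1.44), PADI2 (-1.43), PVR (-1.35), ADM (-1.33), IFI44 (-1.33), IFIT3 (-1.31), H2BC4 (-1.28), CHAC1 (-1.20), PMAIP1 (-1.14), IFI6 (-1.13) and H4C8 (-1.02). AADAC and MMP1 reached 1 FPKM in WT siPARP1 libraries only and were among the tested genes through these alone, so their values are descriptions. SERPINB2, AADAC, AADACP1 and MMP1 lay at or below 1.85 FPKM in every KO library, and the calls of SERPINB2 and AADACP1 were lost with a pseudocount of 0.1.

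Higher responses in KO cells were found for PDP1 (1.89), HSPA8 (1.52), CXCL1 (1.43), CXCL8 (1.33), HSPA1A (1.28), FOS (1.24), CXCL2 (1.22), HSPA1B (1.17), TAGLN (1.14), DNAJB9 (1.11) and LBH (1.04). For all of these but TAGLN and LBH, the untreated KO libraries lay below the untreated WT libraries.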

How the results depend on the processing

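The count of 507 genes became 829 (432 higher, 397 lower) with all 18 libraries in a single fit, 287 (131 and 156) with a replicate block, and 162 (73 and 89) at an adjusted p under 0.01. The count of 45 genes with opposite directions became 28 with the block and 14 at 0.01. Leaving out 1 library gave 298 to 374 genes, 142 to 188 higher and 156 to 208 lower, and 26 to 41 of opposite direction. Of the 507 calls, 282 were kept under the block. The other alternatives gave 421 to 552 genes, 461 of them where genes that met the level filter through 1 group were left out (added after seeing the data), and without mitochondrial transcripts in the total 63.21% of calls were higher, against 49.11%. Transcript sums reversed 1 of the 507 calls. Among named genes the sign of PARP1 was reversed with transcript sums (0.66), and the interaction of TRIM27 was reversed without WT replicate 3 (-0.0291), KO replicate 2 (-0.0036), WT siPARP1 replicate 1 (-0.007) or replicate 2 (-0.049), within a range of -0.049 to 0.148 over all fits without 1 library, neither being called. The calls of IFIT1, IFIT3, IFI6, IFI44, CXCL1, CXCL2, CXCL8, IL6, DNAJB9, MANF, ADM, BNIP3, PGK1, TAGLN, TIMP3, FOS, PVR and PMAIP1 were kept in every alternative that tested them and every fit without 1 library. IFI44 did not meet the alternative filter of 5 FPKM and was not tested there. The block kept 7 of 13 ER calls. Causes were not tested. Absolute depth is unknown, and low genes are limited by it.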

Other observations

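Genes outside the naming rule were looked up after their values were seen. TXNIP, which binds thioredoxin and limits glucose uptake, measured 23.8, 24.8 and 26.1 FPKM in KO siPARP1 cells, against 91, 85.9 and 91 FPKM in untreated KO cells, and 27.7, 27.6 and 27.2 FPKM in WT siPARP1 cells, against 41.6, 42.1 and 40.6 FPKM in untreated WT cells. It fell in both genotypes, and untreated KO libraries were the highest. Its interaction was -1.23 ± 0.064 (SE; adjusted p = 1.02e-05). IGFBP3, a secreted binding protein of insulin-like growth factors, measured 101, 96.3 and 102 FPKM in KO siPARP1 cells, against 352, 362 and 352 FPKM in untreated KO cells, and 176, 171 and 169 FPKM in WT siPARP1 cells, against 258, 272 and 267 FPKM in untreated WT cells. The groups ran in the same order as for TXNIP, and the interaction was -1.20 ± 0.058 (SE; adjusted p = 8.05e-06).

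Some interactions came from genes that KO cells scarcely express. UCHL1, a ubiquitin hydrolase of neurons, was listed at 0 in all KO siPARP1 libraries and at 0.191 FPKM or less in untreated KO libraries, and measured 74.4, 53.5 and 67.3 FPKM in WT siPARP1 cells, against 30.8, 30.5 and 32.9 FPKM in untreated WT cells. KISS1, the kisspeptin precursor, was also listed at 0 in all KO siPARP1 libraries, and measured 2.46, 2.97 and 2.35 FPKM in WT siPARP1 cells, against 0.622, 0.47 and 0.595 FPKM in untreated WT cells. APOE, apolipoprotein E, measured 0.778, 0.9 and 0.625 FPKM in KO siPARP1 cells, against 0.423, 0.695 and 0.744 FPKM in untreated KO cells, and 9.59, 10.3 and 9.9 FPKM in WT siPARP1 cells, against 3.58, 3.45 and 3.11 FPKM in untreated WT cells. KISS1 reached 1 FPKM in these WT siPARP1 libraries only. For such genes the interaction holds mainly the WT response. Of 965 tested loci without a name, 17 were called, 6 higher and 11 lower.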
